A study of Danio rerio with 16 samples.

Results

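The enzymes of glycolysis, of the citric acid cycle and of the pathways that branch from them were followed in rad21 mutant zebrafish embryos. Members were chosen by a rule on names, set with earlier results of these data known. A probe set entered if the array annotation gave it a single gene symbol beginning with, or equal to, the symbol of one of these enzymes. The rule found 83 of the 15617 probe sets on the array, of which 3 are manufacturer controls for GAPDH. The other 80 stand for 64 of the 8793 genes measured. By role these were 22 genes of glycolysis, 4 of lactate dehydrogenase, 5 of the pyruvate dehydrogenase complex, 17 of the citric acid cycle, 5 of gluconeogenesis, 3 of the pentose phosphate pathway, 3 glycerol phosphate dehydrogenases and 2 glycogen phosphorylases. Another 3 genes met the rule by spelling alone: pgam5, a mitochondrial protein phosphatase, pkmyt1, a cell cycle kinase, and pygo2, a Wnt coactivator. The label thus holds for at most 61 of the 64 genes. The citric acid cycle genes were grouped by name and include cytosolic forms, such as mdh1ab and idh1, which lie outside the mitochondrial cycle.

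Glycolysis splits glucose into pyruvate in the cytosol and yields ATP and NADH. Pyruvate is either reduced to lactate or carried into mitochondria, where the pyruvate dehydrogenase complex turns it into acetyl-CoA for the citric acid cycle. Vertebrates have several genes for most glycolytic steps, and the copies are used in different tissues: skeletal muscle has its own phosphofructokinase, phosphoglycerate mutase and enolase, and it makes up much of the body of an embryo in its second day.

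The mutants were homozygous for the nz171 allele of rad21, the gene of the cohesin subunit that closes the ring around DNA. There were 4 groups, all of them dechorionated embryos kept in embryo medium: mutants and wild types at 24 hours post fertilisation (hpf), and mutants and wild types at 48 hpf. Each group had 4 replicates, each a pool of 50 embryos hybridised to 1 Affymetrix zebrafish array, so 16 arrays were measured. How mutants were told from wild types at each time, and whether the wild types were siblings, is not stated in the labels.

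The targeted gene was low in the arrays labelled mutant: rad21a was 12-fold lower in mutants than in wild types at 24 hpf and 15.2-fold lower at 48 hpf (log2 means of 6.80 against 10.38, and 6.32 against 10.24). Values are log2 of the deposited intensity throughout, and the error after ± is the SD of a group's arrays or, for a log2 change, the SE of the fit, with n = 4 arrays per group. The median intensity of an array lay between 45.5 and 48.1 on the linear scale. Background was read from 5 foreign sequences absent from the embryos, whose probe sets had log2 intensities of 2.77 to 7.22 with a median of 4.66. Of the 64 members, 36 lay above 7.22 in every group, 9 lay below 4.66 in at least 1 group and 5 lay below it in all 4. The arrays least like the rest of their groups, by mean correlation, were mutant replicate 4 and wild type replicate 3 at 48 hpf and wild type replicate 1 at 24 hpf. Along the axis of largest variation between arrays (50.6% of the variance), 24 hpf arrays lay from -39.7 to -15.8. At 48 hpf mutants lay at 12.2, 18.0, 24.0 and 38.8, and wild types from 33.3 to 38.6. Whether the genotypes were matched in developmental stage was not tested.

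Most of these enzymes did not pass the test between mutants and wild types, and those that did differed by between 1.3-fold and 2.37-fold. A gene was called at a limma p-value under 0.05 after Benjamini-Hochberg adjustment over 15502 probe sets. At 24 hpf 2 members were higher, 1 was lower and 61 were not called, which is 3.12% higher and 1.56% lower, against 3.61% higher and 5.08% lower among all 8793 genes. At 48 hpf 7 were higher, 4 were lower and 53 were not called, which is 10.9% and 6.25%, against 9.66% and 8.18% among all genes. In both directions at 48 hpf the members' share was near that of all genes. The median log2 change of the members was 0.01 at 24 hpf and -0.00 at 48 hpf, and over all genes it was -0.00 and 0.03.

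The precision behind the uncalled members can be read from their intervals. The median member had a 95% confidence interval of its log2 change that reached 0.31 to either side. That interval lay within a 2-fold change either way for 59 of the 61 uncalled members at 24 hpf and for 49 of the 53 at 48 hpf. At an unadjusted limma p under 0.05, 4 members were higher and 3 lower at 24 hpf, and 12 were higher and 9 lower at 48 hpf. Without the 3 arrays least like their groups, the count at 24 hpf was 3 higher and 3 lower, and at 48 hpf it was 5 higher and 7 lower. At 48 hpf this lost the calls of suclg2 and ldhba and added lower calls of gapdh (-0.43, adjusted p = 0.0372), ldha (-0.80, adjusted p = 0.0202) and pygo2 (-0.43, adjusted p = 0.0167).

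**Figure D1:**
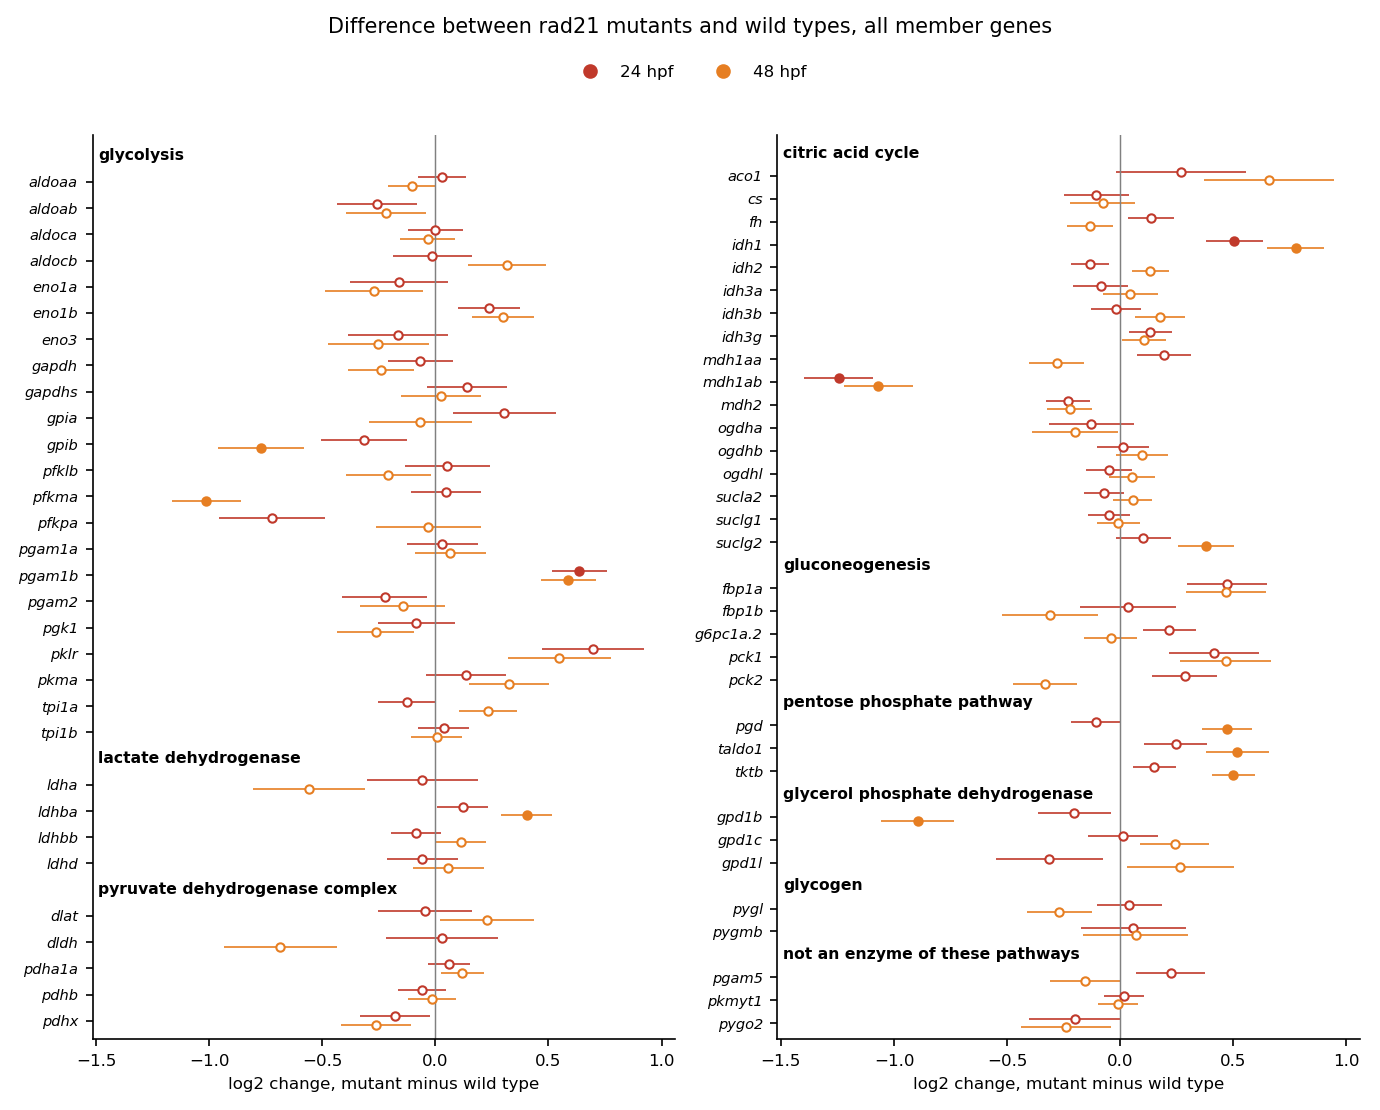
Log2 change ± SE, mutant minus wild type, of all 64 member genes at 24 hpf (red) and 48 hpf (orange), grouped by role, with n = 4 arrays per group. Filled points are genes called at a limma adjusted p under 0.05: 3 at 24 hpf and 11 at 48 hpf, with mdh1ab lowest at both times.

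Of the marker lists of several tissues, only that of red blood cells had most of its genes called between the genotypes, and only at 48 hpf. Among all genes 3.61% were higher and 5.08% lower in mutants at 24 hpf, and 9.66% and 8.18% at 48 hpf. Of 13 measured skeletal muscle markers 1 was called lower and 0 higher in mutants at 24 hpf (median log2 change -0.55), and 2 lower and 0 higher at 48 hpf (median -0.39). Their log2 changes ran from -1.735 to 0.06 at 24 hpf. At 48 hpf all 13 were below 0, from -1.61 to -0.07. The log2 of their summed intensity ranged from 16.17 to 16.78 in mutants and from 16.78 to 16.88 in wild types at 48 hpf, and 1 of the 13 lay below the background median in every group. Of 8 red blood cell markers 1 was lower at 24 hpf and 6 at 48 hpf, when the median was -1.21 and the summed level was 13.73 to 14.34 in mutants and 14.52 to 14.71 in wild types. Of 9 neuronal markers 1 was higher and 1 lower at each time, with a summed level at 48 hpf of 11.08 to 12.07 in mutants and 11.01 to 11.57 in wild types. Of 11 liver and yolk markers 0 were called at either time, and of 4 heart markers 1 was lower at each time. The log2 changes of the heart markers ran from -0.95 to -0.18 at 24 hpf and from -0.47 to -0.10 at 48 hpf. Of 6 photoreceptor markers 1 was higher and 1 lower at 24 hpf, and 2 were lower at 48 hpf. In wild types at 48 hpf 4 of these 6 lay below the background median, and in each other group 5 did. The part of these tissues in the members' values was not tested. As whole embryos were measured, fewer cells of a type and less RNA per cell cannot be told apart.

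A measure of RNA quality was read as well: the signal of the 3′ control of muscle actin acta1 stood further above that of its 5′ control in mutants. The gap was wider by 0.616 at 24 hpf and by 0.949 at 48 hpf in log2 units. Each had a two-sided exact permutation p of 0.0286, the smallest for groups of 4, and an adjusted p of 0.0571 over 4 tests. Mutant minus wild type was -0.83, -0.17 and -0.22 for the 5′, middle and 3′ probe sets of acta1 at 24 hpf. At 48 hpf it was -1.32, -0.37 and -0.37, so the middle probe set moved like the 3′ one. The gap between the 3′ and 5′ controls of GAPDH was wider by 0.124 at 24 hpf (exact permutation p = 0.143) and 0.0193 at 48 hpf (exact permutation p = 0.514). The part of RNA quality in the members' values was not tested either.

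Among the 17 genes grouped by name with the citric acid cycle, 1 rose and 1 fell in mutants at 24 hpf. At 48 hpf 2 rose and 1 fell. Both genes called at 24 hpf, mdh1ab and idh1, encode cytosolic enzymes. The member that fell was mdh1ab, a cytosolic malate dehydrogenase, which interconverts malate and oxaloacetate outside the mitochondria. At 24 hpf its log2 intensity was 6.89, 6.59, 6.71 and 7.02 in the mutant arrays, against 7.97, 7.84, 8.11 and 8.27 in wild types. At 48 hpf it was 7.97, 8.22, 8.55 and 8.80 in mutants, against 9.58, 9.42, 9.29 and 9.54 in wild types. Every mutant array lay below every wild type array of the same time.

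The level of mdh1ab was 2.37-fold lower in mutants at 24 hpf (log2 change -1.25 ± 0.15, adjusted p = 0.000116) and 2.1-fold lower at 48 hpf (-1.07 ± 0.15, adjusted p = 0.000135). The difference at 48 hpf minus that at 24 hpf was 0.18 and was not called, so the genotype difference was not shown to change with time. Its closest relatives by name were not called at either time. The paralog mdh1aa had a log2 change of 0.19 at 24 hpf and -0.28 at 48 hpf (adjusted p = 0.137), and the mitochondrial malate dehydrogenase mdh2 had -0.23 and -0.22. A difference between the changes of these genes was not tested.

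The member that rose at both times was idh1, the cytosolic isocitrate dehydrogenase that makes NADPH. At 48 hpf it read 8.48, 8.45, 8.40 and 8.78 in mutants, against 7.77, 7.67, 7.77 and 7.80 in wild types, with no overlap. This was a 1.71-fold higher level (0.78 ± 0.13, adjusted p = 0.000416). At 24 hpf it read 8.07, 8.48, 8.18 and 8.28 in mutants, against 8.14, 7.58, 7.62 and 7.66 in wild types, so that wild type replicate 1 lay inside the mutant range.

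The change of idh1 at 24 hpf was 1.42-fold (0.51 ± 0.13, adjusted p = 0.0214). Over 26 alternatives it lay between 0.43 and 0.64, and the call held without wild type replicate 1. The call rested on other single arrays, and was lost in 6 of the alternatives, where the change was 0.43 to 0.50. Its adjusted p was 0.066 without mutant replicate 2 and 0.0569 without mutant replicate 4. It was 0.0718, 0.0711 and 0.0614 without wild type replicates 2, 3 and 4, and 0.0505 in a fit to the 24 hpf arrays alone. The mitochondrial NADP-linked enzyme idh2 was not called (-0.13 at 24 hpf and 0.13 at 48 hpf).

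The other citric acid cycle gene called at 48 hpf was suclg2, the GTP-forming subunit of succinyl-CoA ligase. It read 10.34, 9.77, 10.15 and 10.11 in mutants, against 9.77, 9.59, 9.56 and 9.92 in wild types, and the groups overlapped. The level was 1.3-fold higher (0.38 ± 0.12, adjusted p = 0.044). The call ended without any of mutant replicates 3 and 4 or wild type replicates 2, 3 and 4 at 24 hpf, and without any of mutant replicates 1, 3 and 4 or wild type replicates 1, 2 and 3 at 48 hpf, at adjusted p-values from 0.0501 to 0.131. It also ended with arrays centred on a common median (adjusted p = 0.0578), with cyclic loess scaling (0.0705) and with array weights (0.055). In a fit to the 48 hpf arrays alone the adjusted p was 0.102. The subunits that suclg2 pairs with or replaces were not called at 48 hpf, with -0.01 for suclg1 and 0.06 for sucla2. For idh3a, a subunit of the NAD-linked isocitrate dehydrogenase, 2 probe sets gave different calls at 48 hpf, 0.04 for the brighter and 0.38 (adjusted p = 0.0385) for the dimmer.

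In glycolysis, 1 of 22 genes rose and 0 fell in mutants at 24 hpf, and 1 rose and 2 fell at 48 hpf. The gene that rose was pgam1b, a phosphoglycerate mutase, which moves the phosphate of 3-phosphoglycerate. At 24 hpf it read 7.05, 6.87, 7.03 and 7.20 in mutants, against 6.68, 6.28, 6.24 and 6.41 in wild types. At 48 hpf it read 7.99, 7.95, 8.13 and 8.40 in mutants, against 7.59, 7.69, 7.35 and 7.48 in wild types. The groups did not overlap at either time.

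The level of pgam1b was 1.55-fold higher in mutants at 24 hpf (0.64 ± 0.12, adjusted p = 0.00389) and 1.5-fold higher at 48 hpf (0.59 ± 0.12, adjusted p = 0.00316). The difference between those changes was -0.05 (adjusted p = 0.955). The other mutase genes were not called: pgam1a had 0.03 and 0.07, and pgam2, the muscle form in mammals, had -0.22 and -0.14 at 24 and 48 hpf.

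The glycolysis genes that fell at 48 hpf were pfkma and gpib. The gene pfkma, a muscle-type phosphofructokinase, which makes fructose 1,6-bisphosphate at the committed step, read 5.28, 5.41, 5.42 and 6.01 in mutants, against 6.41, 6.60, 6.27 and 6.90 in wild types. Every mutant array lay below every wild type array, and the level was 2.02-fold lower in mutants (-1.01 ± 0.15, adjusted p = 0.000242). At 24 hpf it read 4.21, 3.76, 3.88 and 3.91 in mutants, against 3.93, 3.87, 3.97 and 3.80 in wild types, all below the background median of 4.66, and the change was 0.05 (adjusted p = 0.925). As neither group stood above that median at 24 hpf, a difference there may have gone unmeasured. The foreign sequences ranged from 2.77 to 7.22, a range that also holds the 48 hpf values of pfkma. Each probe set has its own affinity, so the background of pfkma itself is not known.

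Glucose-6-phosphate isomerase, the step before, is encoded by gpia and gpib. At 48 hpf gpib read 7.13, 6.90, 7.06 and 7.52 in mutants, against 7.91, 7.88, 7.86 and 8.04 in wild types, with no overlap. It was 1.71-fold lower in mutants (-0.77 ± 0.19, adjusted p = 0.0102). At 24 hpf it was not called (-0.31 ± 0.19, adjusted p = 0.396), with mutant arrays at 4.95, 4.63, 5.09 and 5.57 and wild type arrays at 5.27, 5.91, 5.09 and 5.24. These values of gpib lay near the background median of 4.66, so a difference at that time may be understated. Its paralog gpia was not called at either time (0.31 at 24 hpf and -0.07 at 48 hpf).

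The remaining glycolytic genes were not called at either time. Their log2 changes at 48 hpf included 0.55 for pklr (adjusted p = 0.117), -0.22 for aldoab (an aldolase), 0.01 for tpi1b (triosephosphate isomerase), -0.24 for gapdh (glyceraldehyde-3-phosphate dehydrogenase), -0.26 for pgk1 (phosphoglycerate kinase), -0.25 for eno3 (enolase) and 0.33 for pkma (pyruvate kinase). Larger uncalled changes at 24 hpf were those of pklr, the pyruvate kinase of liver and red cells in mammals (0.70 ± 0.23, adjusted p = 0.0717), and pfkpa, a platelet-type phosphofructokinase (-0.72 ± 0.23, adjusted p = 0.0713). At 24 hpf pklr was called without mutant replicate 2 of that time (adjusted p = 0.0272). At that time it was also called with array weights (0.0184) and without the 3 arrays least like their groups (0.0478). At 48 hpf it was called without mutant replicate 4 at 24 hpf (adjusted p = 0.0175) and in a fit to the 48 hpf arrays alone (adjusted p = 0.0349). The 24 hpf call of pfkpa was made without mutant replicate 4 at 24 hpf (adjusted p = 0.00725), without wild type replicate 1 at 24 hpf (0.0469) and without mutant replicate 1 at 48 hpf (0.0497). It was also made with array weights (0.00368) and without the 3 arrays least like their groups (0.025).

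In the interaction, the genotype difference at 48 hpf minus that at 24 hpf, 1 of the 64 members was called, and it was pfkma (-1.06 ± 0.22, adjusted p = 0.0202). As its 24 hpf values lay below the background median, this call was not taken to show that its genotype difference changed with time. Among all genes 0.773% had a called increase and 1.03% a called decrease in this difference. At an unadjusted limma p under 0.05 there were 3 higher and 4 lower members. The median 95% interval of a member reached 0.45 to either side.

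**Figure D2:**
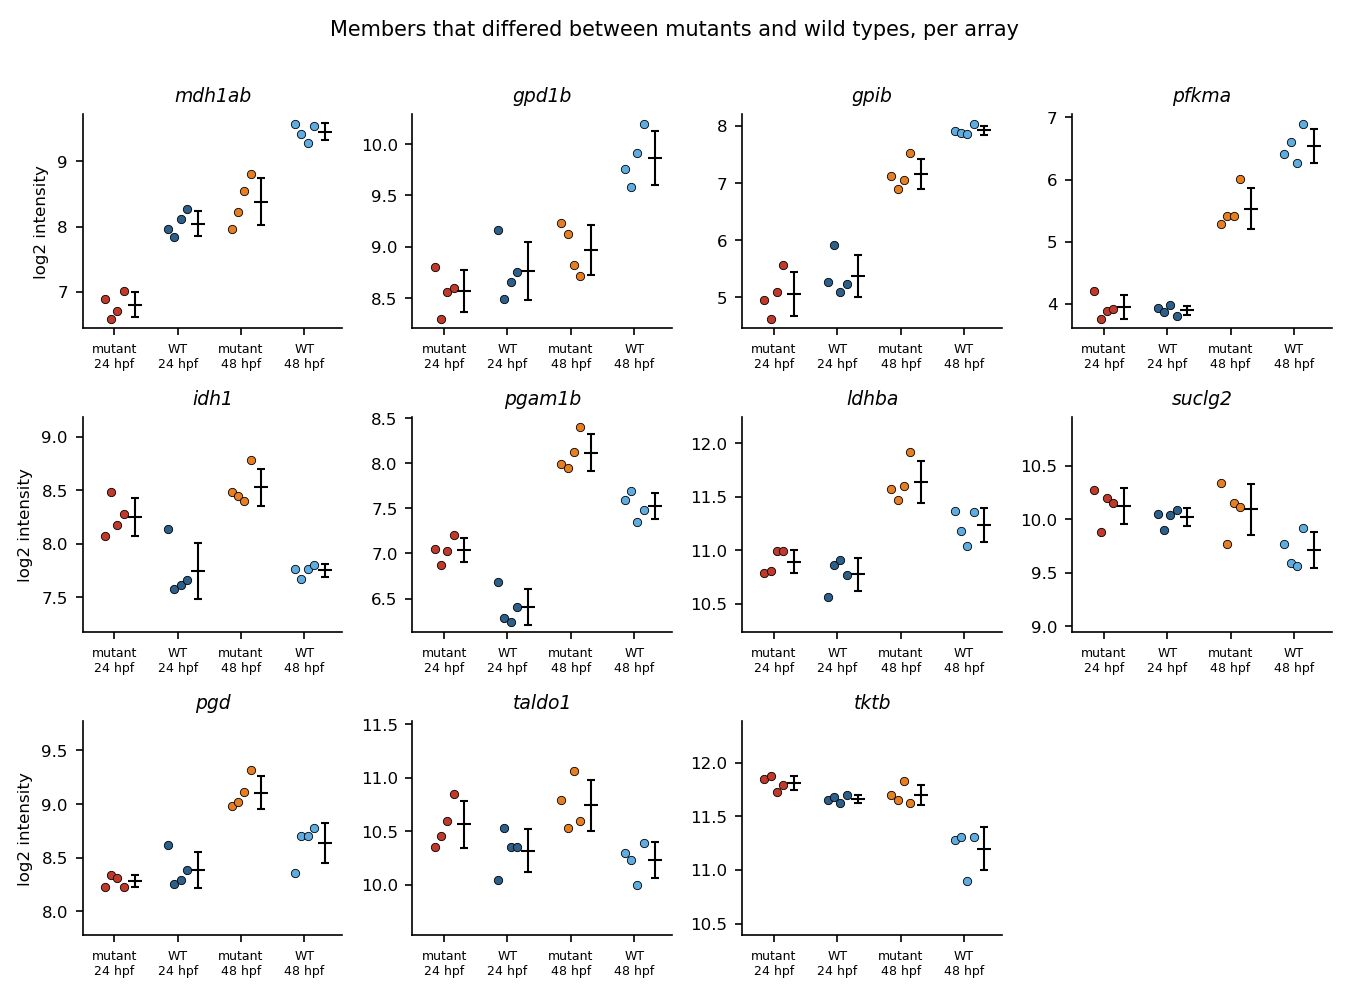
Log2 intensity of the 11 members called between mutants and wild types, with 1 point per array (n = 4 per group) and a bar for the mean ± SD, in mutants and wild types at 24 hpf and then at 48 hpf. Mutants lie below wild types at 48 hpf in mdh1ab, gpd1b, gpib and pfkma and above them in the others, where only suclg2 has overlapping groups at that time.

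At the end of glycolysis, lactate dehydrogenase interconverts pyruvate and lactate. The gene ldhba, a B subunit, read 11.57, 11.47, 11.60 and 11.92 in mutants at 48 hpf, against 11.37, 11.18, 11.04 and 11.36 in wild types, without overlap. It was 1.32-fold higher in mutants (0.40 ± 0.11, adjusted p = 0.0217). The call ended without mutant replicate 4 (0.31, adjusted p = 0.0707), wild type replicate 2 (adjusted p = 0.0587) or wild type replicate 3 (adjusted p = 0.064) at 48 hpf, and the change was 0.25 (adjusted p = 0.0942) without the 3 arrays least like their groups. It also ended with cyclic loess scaling (adjusted p = 0.053) and in a fit to the 48 hpf arrays alone (adjusted p = 0.0604). The A subunit gene ldha had -0.56 ± 0.25 at 48 hpf (adjusted p = 0.145), and was called without mutant replicate 4 at 48 hpf (-0.80, adjusted p = 0.0237). The genes ldhbb and ldhd were not called, and ldhbb lay below the background median in every group.

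In the pyruvate dehydrogenase complex 0 of 5 genes were called by limma at either time, with 0 at 24 hpf and 1 at 48 hpf at an unadjusted p under 0.05. The catalytic subunit genes pdha1a and pdhb had 0.12 and -0.01 at 48 hpf, the acetyltransferase gene dlat 0.23 and the binding protein gene pdhx -0.26. The gene dldh encodes dihydrolipoamide dehydrogenase, the subunit shared with the 2-oxoglutarate dehydrogenase complex of the cycle. At 48 hpf it read 7.22, 7.34, 6.81 and 5.84 in mutants, against 7.71, 7.73, 7.35 and 7.16 in wild types, and the groups overlapped. Its change of -0.69 ± 0.25 was not called (adjusted p = 0.0733), but it was without mutant replicate 1 (adjusted p = 0.042) or replicate 2 (adjusted p = 0.0324) at 48 hpf. The change was also called with array weights (adjusted p = 0.0275).

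The pentose phosphate pathway makes NADPH and ribose phosphate from glucose 6-phosphate. Its 3 members were called higher in mutants at 48 hpf, with a median log2 change of 0.50, beside 9.66% of all genes called higher. Of the pathway's genes outside the naming rule, rpe, an epimerase, was not called (0.28, adjusted p = 0.328), and pgls is given below. At 24 hpf 0 of the 3 were called by limma, adjusted or at an unadjusted p under 0.05, and the median was 0.15. The gene pgd, which encodes the NADPH-forming 6-phosphogluconate dehydrogenase, read 8.98, 9.02, 9.11 and 9.32 in mutants at 48 hpf, against 8.36, 8.70, 8.70 and 8.78 in wild types. For tktb, a transketolase, the mutant arrays read 11.70, 11.65, 11.83 and 11.62, against 11.28, 11.31, 10.90 and 11.31 in wild types. For taldo1, transaldolase, they read 10.79, 10.53, 11.06 and 10.60, against 10.30, 10.23, 10 and 10.39 in wild types. The groups did not overlap in any of the 3 genes, but the share of all genes without overlap was not counted.

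The level was 1.39-fold higher for pgd (0.47 ± 0.11, adjusted p = 0.00693), 1.41-fold for tktb (0.50 ± 0.09, adjusted p = 0.00159) and 1.43-fold for taldo1 (0.52 ± 0.14, adjusted p = 0.0168). The call of taldo1 ended without mutant replicate 3 (0.41, adjusted p = 0.0625) or wild type replicate 3 (0.44, adjusted p = 0.0535) at 48 hpf. The changes at 24 hpf were -0.11 for pgd, 0.15 for tktb and 0.24 for taldo1. The difference between the times was not called for any of them: it was 0.58 ± 0.16 for pgd (adjusted p = 0.08), 0.35 for tktb (adjusted p = 0.276) and 0.27 for taldo1 (adjusted p = 0.649). With array weights that of pgd was called (0.51, adjusted p = 0.0462).

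Glycerol phosphate dehydrogenase turns dihydroxyacetone phosphate, a glycolytic intermediate, into glycerol 3-phosphate. Of its 3 genes 1 fell in mutants at 48 hpf, gpd1b, which read 9.23, 9.12, 8.82 and 8.71 in mutants, against 9.76, 9.58, 9.91 and 10.20 in wild types. No mutant array reached the lowest wild type array, and the level was 1.86-fold lower (-0.90 ± 0.16, adjusted p = 0.00114). At 24 hpf the change was -0.20 (adjusted p = 0.57), and the difference between the times was -0.69 (adjusted p = 0.184). The genes gpd1c (0.24) and gpd1l (0.27) were not called at 48 hpf.

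In gluconeogenesis and glycogen breakdown 0 of 7 genes were called by limma between the genotypes at either time. At an unadjusted p under 0.05 there was 1 higher at 24 hpf, and there were 2 higher and 1 lower at 48 hpf, all in gluconeogenesis. The fructose bisphosphatase fbp1a had 0.47 at both times (adjusted p = 0.122 at 24 hpf and 0.0866 at 48 hpf), and passed at 48 hpf without mutant replicate 4 at 24 hpf (adjusted p = 0.0489) or wild type replicate 4 at 48 hpf (adjusted p = 0.0475). The phosphoenolpyruvate carboxykinases had 0.42 (pck1, cytosolic) and 0.28 (pck2, mitochondrial) at 24 hpf, and 0.47 and -0.33 at 48 hpf. The muscle glycogen phosphorylase pygmb had 0.06 and 0.07.

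Genes that feed or regulate these pathways but do not meet the naming rule were taken from a list of 66, of which 31 were measured. At 24 hpf 1 was higher and 30 were not called, beside 3.61% higher and 5.08% lower among all genes. At 48 hpf 8 were higher, 1 was lower and 22 were not called, beside 9.66% higher and 8.18% lower among all genes. The gene that fell was pgm1, phosphoglucomutase, which links glycogen to glucose 6-phosphate: it read 9.42, 9.47, 9.62 and 9.76 in mutants, against 10.21, 10.34, 10.03 and 10.56 in wild types (-0.71 ± 0.13, adjusted p = 0.00153).

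Hexokinase, which phosphorylates glucose, was higher at 48 hpf through hk2 (0.42 ± 0.09, adjusted p = 0.00474) and, just under the threshold, hk1 (0.45, adjusted p = 0.0479). So were galm, a galactose mutarotase (0.60, adjusted p = 0.00605), the glucose transporter slc2a10 (0.73, adjusted p = 0.017) and ugp2b, which makes UDP-glucose (0.59, adjusted p = 0.0158). The call of slc2a10 ended without mutant replicate 1 (adjusted p = 0.0544) or replicate 2 (0.0617) at 48 hpf, and that of ugp2b without wild type replicate 3 (0.0525). The calls of hk1, pfkfb1 (0.40), the 6-phosphogluconolactonase pgls (0.32) and the succinate dehydrogenase subunit sdhb (0.31) were each lost under 10 or more of the alternatives tried.

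The bifunctional regulator of phosphofructokinase pfkfb4b was the one gene of that list called at 24 hpf. It read 8.57, 8.48, 8.70 and 8.94 in mutants, against 7.21, 7.63, 7.94 and 7.85 in wild types (1.01 ± 0.15, adjusted p = 0.000475). At 48 hpf the groups overlapped (-0.19, adjusted p = 0.452). The difference between the times was itself called (-1.20 ± 0.21, adjusted p = 0.00711).

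More of these enzymes were called between the times than between the genotypes. In mutants 35 of the 64 members were higher and 4 lower at 48 than at 24 hpf, which is 54.7% and 6.25%, against 12.6% and 15.4% among all genes. In wild types 36 were higher and 5 lower, which is 56.2% and 7.81%, against 14.4% and 21.7% among all genes. The median log2 change was 0.44 in mutants and 0.40 in wild types, and over all genes it was -0.02 and -0.06. These comparisons use the same arrays as the genotype comparisons above, but the mutant and wild type ones share none with each other. They had 33 higher members in common, of 35 in mutants and 36 in wild types, and 2 lower ones. The same overlap was not counted over all genes, so it is not shown to be particular to the members.

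**Figure D3:**
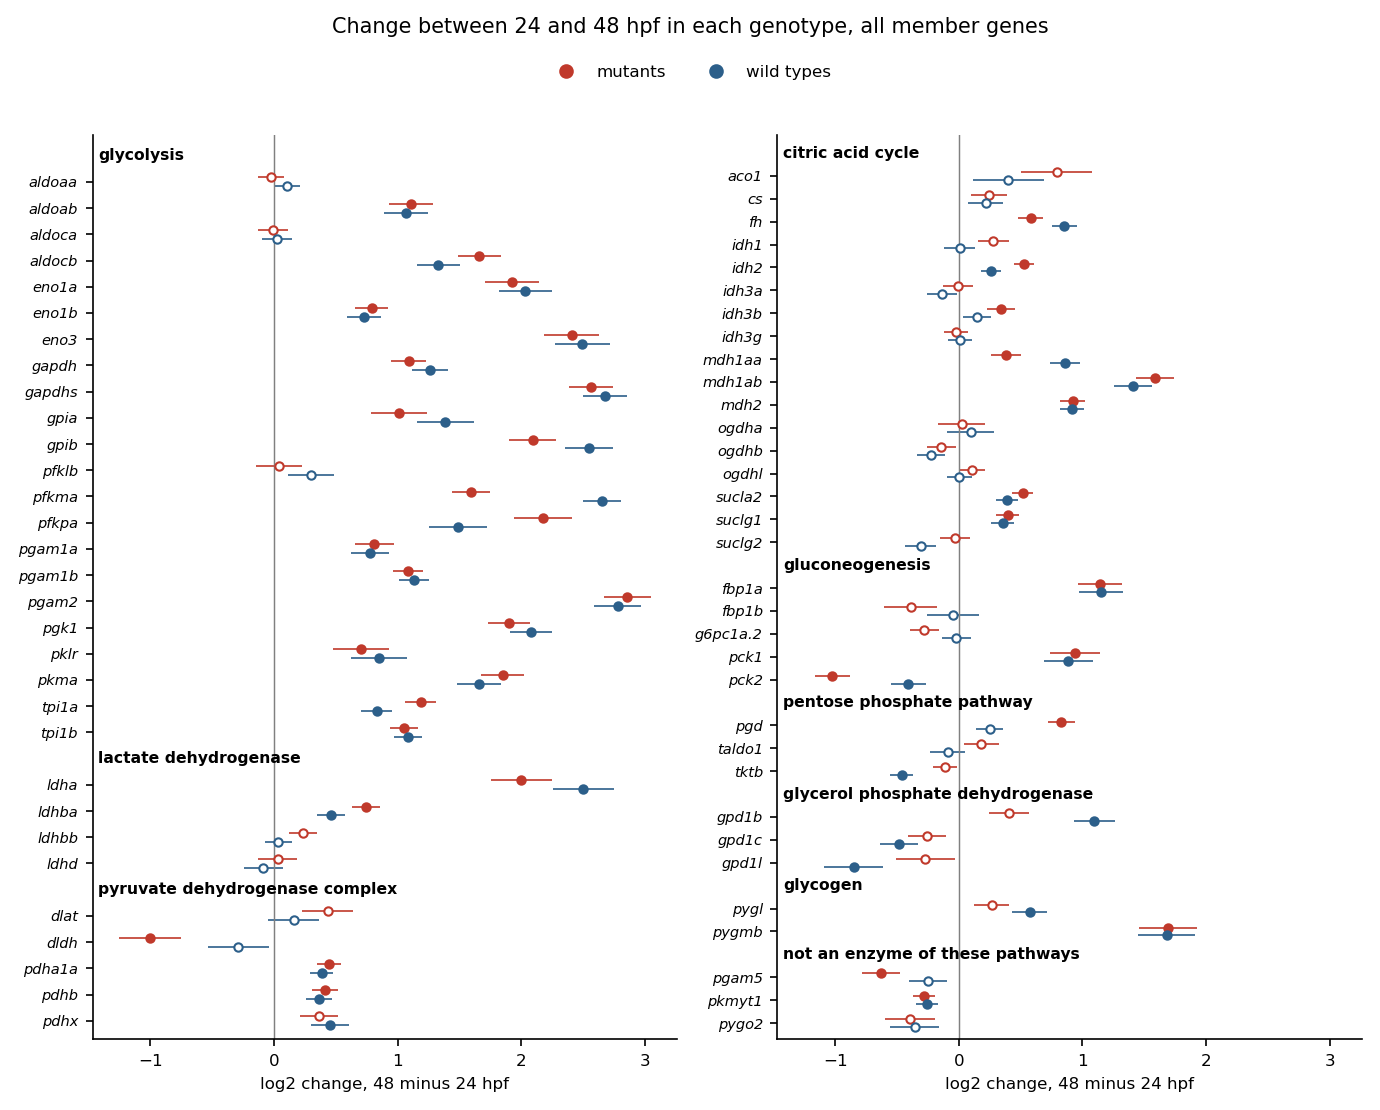
Log2 change ± SE between 48 and 24 hpf of all 64 member genes in mutants (red) and wild types (blue), grouped by role, with n = 4 arrays per group. Filled points are genes called at a limma adjusted p under 0.05: 39 in mutants and 41 in wild types, most of them to the right of 0 in glycolysis.

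Many markers of some tissues were also higher at 48 hpf, beside 12.6% of all genes in mutants and 14.4% in wild types. Of 13 skeletal muscle markers 11 were higher at 48 hpf in either genotype (median log2 change 1.85 in mutants and 1.74 in wild types). The log2 of their summed intensity was 16.17 to 16.78 at 48 hpf and 14.08 to 15.30 at 24 hpf in mutants, and 16.78 to 16.88 at 48 hpf and 14.06 to 15.29 at 24 hpf in wild types. Of 9 neuronal markers 8 were higher in mutants and 9 in wild types. Of 11 liver and yolk markers 7 and 6 were higher, and 1 was lower in wild types. Of 8 red blood cell markers 4 were higher in mutants and 6 in wild types. Of 6 photoreceptor markers, most of them below the background median, 1 was higher in either genotype. Of 4 heart markers 2 were higher in mutants and 1 in wild types. The part of these tissues in the members' changes was not tested.

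Most glycolysis genes rose. Of its 22 genes 19 were higher at 48 hpf and 0 lower in mutants, and the same counts were found in wild types, with median log2 changes of 1.15 and 1.30. At each step from the isomerase to pyruvate kinase at least 1 gene rose in both genotypes, and the changes are given in pathway order. They were 2.09 in mutants and 2.55 in wild types for gpib, 2.18 and 1.49 for pfkpa, 1.66 and 1.33 for the aldolase aldocb, and 1.05 and 1.09 for tpi1b. Further down they were 1.09 and 1.26 for gapdh, 1.90 and 2.08 for pgk1, 2.86 and 2.78 for pgam2, 2.41 and 2.49 for eno3, and 1.85 and 1.66 for pkma. The 3 genes not called in either genotype were aldoaa (11.59 and 11.62 in mutants at 48 and 24 hpf), aldoca, which was below the background median in every group, and the liver-type phosphofructokinase pfklb. The 3 probe sets of pfklb changed by 0.30 (the brightest), 0.07 and 0.44 in wild types, and their calls differed.

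The largest measured change in both genotypes was that of pgam2, the muscle phosphoglycerate mutase. The rises of members below or near the background median at 24 hpf, such as pfkma and gpib, may be understated. The change of pgam2 is given by array. In mutants it read 10.91, 10.95, 10.80 and 11.15 at 48 hpf, against 7.87, 7.64, 8.05 and 8.83 at 24 hpf, a 7.25-fold rise (2.86 ± 0.19, adjusted p = 3.22e-08). In wild types it read 10.92, 11.07, 11.09 and 11.32 at 48 hpf, against 8.07, 8.56, 8.35 and 8.30 at 24 hpf, a 6.86-fold rise (2.78 ± 0.19, adjusted p = 1.22e-08). The arrays of the times did not overlap in either genotype, and the genotypes' changes were not shown to differ (adjusted p = 0.951).

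A second glyceraldehyde-3-phosphate dehydrogenase gene, gapdhs, had the next largest measured change. In mutants it read 10.96, 11.56, 11.64 and 11.94 at 48 hpf, against 8.78, 8.97, 8.74 and 9.37 at 24 hpf (2.56 ± 0.18, 5.91-fold). In wild types it read 11.41, 11.62, 11.49 and 11.49 at 48 hpf, against 8.58, 8.77, 9.14 and 8.81 at 24 hpf (2.68 ± 0.18, 6.4-fold). The manufacturer's GAPDH controls, whose annotation names the same gene, are often used as a constant reference. Their 3 probe sets read higher at 48 than at 24 hpf by 2.45 to 2.55 in mutants and by 2.41 to 2.58 in wild types, which was not tested.

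The muscle enolase eno3 rose 5.3-fold in mutants (2.41 ± 0.22) and 5.63-fold in wild types (2.49 ± 0.22). In mutants it read 10.71, 11.03, 11.17 and 11.44 at 48 hpf, against 8.58, 7.94, 8.82 and 9.37 at 24 hpf. In wild types it read 11.28, 11.36, 11.28 and 11.43 at 48 hpf, against 8.47, 9.02, 8.98 and 8.91 at 24 hpf. Again every 48 hpf array lay above every 24 hpf array. The lactate dehydrogenase A gene ldha rose 4-fold in mutants (2.00 ± 0.25, adjusted p = 2.26e-05) and 5.66-fold in wild types (2.50 ± 0.25, adjusted p = 1.1e-06). It read 7.76, 7.91, 8.05 and 8.87 at 48 hpf, against 6.11, 6.22, 5.51 and 6.74 at 24 hpf in mutants, and 8.55, 8.67, 8.70 and 8.90 at 48 hpf, against 5.76, 6.33, 6.14 and 6.58 at 24 hpf in wild types. The interaction was not called for eno3 (adjusted p = 0.958) or ldha (adjusted p = 0.635).

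For pfkma, whose arrays are given above, the measured log2 changes were 1.59 ± 0.15 in mutants (adjusted p = 1.85e-06) and 2.65 ± 0.15 in wild types (adjusted p = 2.13e-09). Because every 24 hpf value lay below the background median, these may be lower bounds. Their difference was not taken to measure a difference between the genotypes' rises. The rises of gpib were 4.26-fold in mutants (2.09 ± 0.19) and 5.84-fold in wild types (2.55 ± 0.19), with no overlap between the times in either genotype and no called interaction (adjusted p = 0.554). For pfkpa the mutant arrays read 6.94, 7.56, 7.45 and 7.92 at 48 hpf, against 5.02, 4.85, 5.22 and 6.08 at 24 hpf, a 4.53-fold rise (2.18 ± 0.23, adjusted p = 5.9e-06). In wild types pfkpa read 7.49, 7.64, 7.28 and 7.58 at 48 hpf, against 5.67, 6.24, 6.25 and 5.89 at 24 hpf, a 2.8-fold rise (1.49 ± 0.23). The difference between these rises was not called (0.69, adjusted p = 0.423). Some 24 hpf values of gpib and pfkpa lay near the background median, so their rises, and differences between the genotypes' rises, may be misjudged.

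**Figure D4:**
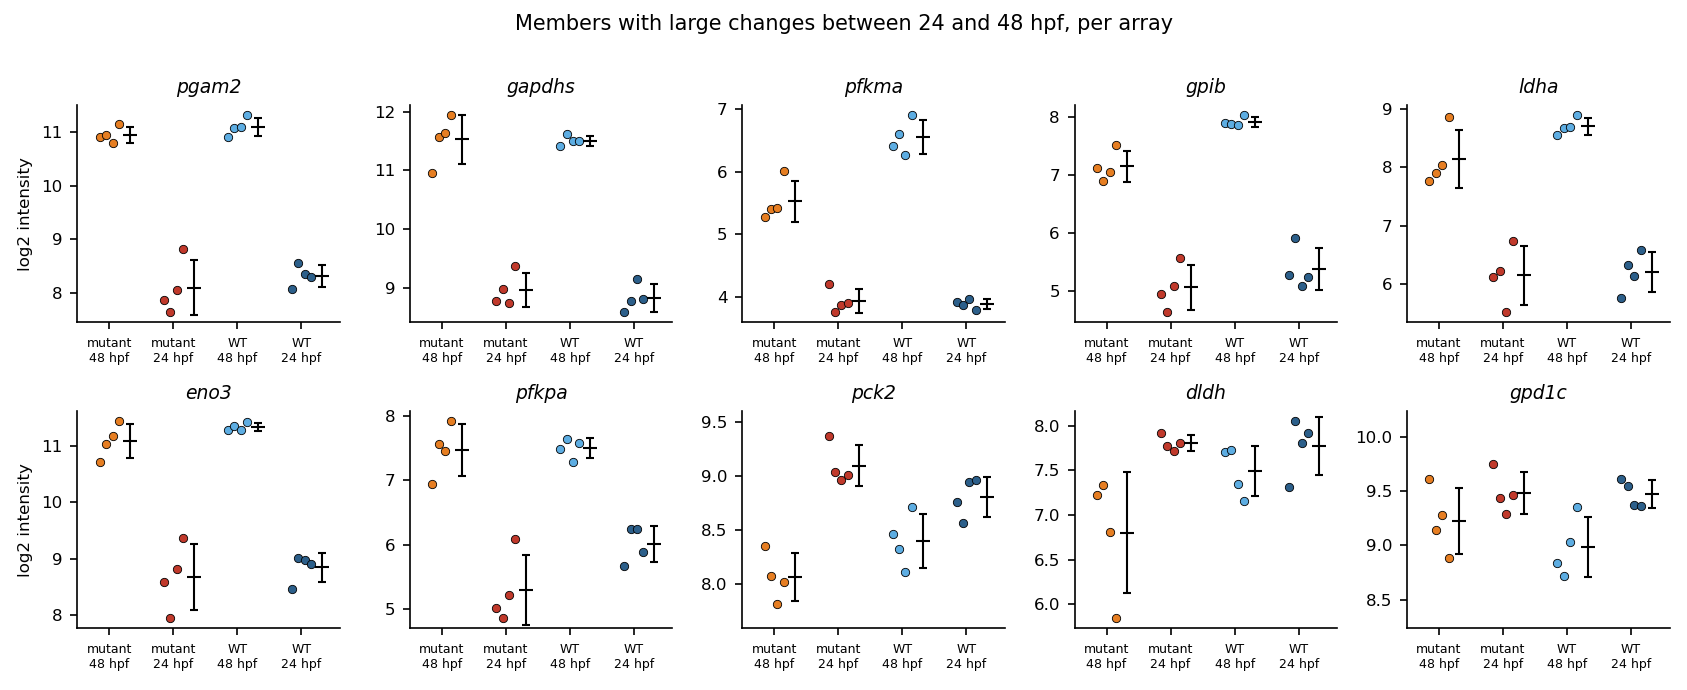
Log2 intensity of 10 members with large changes between the times, with 1 point per array (n = 4 per group) and a bar for the mean ± SD, in mutants at 48 and 24 hpf and then in wild types at 48 and 24 hpf. The rises of pgam2, gapdhs, pfkma, gpib, ldha, eno3 and pfkpa separate the times in both genotypes, and pck2 and dldh are lower at 48 hpf in mutants.

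Of the 17 genes grouped by name with the citric acid cycle, 8 were higher and 0 lower at 48 hpf in mutants. In wild types 7 were higher and 0 lower, and the medians were 0.34 in mutants and 0.22 in wild types. The largest changes were those of the malate dehydrogenases: 1.59 ± 0.15 in mutants and 1.41 ± 0.15 in wild types for mdh1ab, and 0.92 and 0.91 for mdh2. Fumarase, fh, changed by 0.58 and 0.85, and the ligase subunits sucla2 and suclg1 by between 0.36 and 0.52 in the 2 genotypes. Citrate synthase, cs, which brings acetyl-CoA into the cycle, was not called (0.24 in mutants and 0.22 in wild types), nor were the 2-oxoglutarate dehydrogenase genes ogdha, ogdhb and ogdhl, of which ogdhl was below the background median in every group.

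Among pyruvate dehydrogenase genes pdha1a (0.44 in mutants and 0.39 in wild types) and pdhb (0.41 and 0.36) rose in both genotypes. The gene dldh fell in mutants, with 7.22, 7.34, 6.81 and 5.84 at 48 hpf, against 7.92, 7.77, 7.72 and 7.81 at 24 hpf, and no overlap (-1.0 ± 0.25, adjusted p = 0.00739). In wild types its change was -0.29 (adjusted p = 0.425), and the difference between the genotypes was not called (-0.72, adjusted p = 0.445). In lactate dehydrogenase, ldhba rose as well as ldha, by 0.74 in mutants and 0.46 in wild types.

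The pathways that run the other way or branch off did not rise as one. Of the 5 gluconeogenesis genes fbp1a (1.14 in mutants and 1.15 in wild types) and pck1 (0.94 and 0.89) rose and pck2 fell in both genotypes. The mitochondrial carboxykinase pck2 read 8.35, 8.08, 7.82 and 8.02 at 48 hpf, against 9.37, 9.04, 8.96 and 9.01 at 24 hpf in mutants, a 2.03-fold fall without overlap (-1.02 ± 0.14, adjusted p = 6.9e-05). In wild types it read 8.46, 8.33, 8.11 and 8.71 at 48 hpf, against 8.76, 8.57, 8.94 and 8.96 at 24 hpf, with overlapping arrays (-0.41 ± 0.14, adjusted p = 0.0379). That wild type call ended without any of replicates 1, 3 and 4 at 24 hpf or replicates 1, 2 and 3 at 48 hpf (adjusted p from 0.0547 to 0.125). It also ended with cyclic loess scaling (-0.25, adjusted p = 0.173) and without the 3 arrays least like their groups (-0.32, adjusted p = 0.144). In a fit to the wild type arrays alone the adjusted p was 0.0514. The difference between the genotypes' changes was not called (-0.62, adjusted p = 0.174).

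In the pentose phosphate pathway pgd rose in mutants (0.83 ± 0.11, adjusted p = 4.5e-05), where its wild type change was 0.25 (adjusted p = 0.0999). By contrast tktb fell in wild types, with 11.28, 11.31, 10.90 and 11.31 at 48 hpf, against 11.65, 11.68, 11.62 and 11.70 at 24 hpf (-0.46 ± 0.09, adjusted p = 0.00135), and had -0.11 in mutants (adjusted p = 0.426). Neither gene had a called interaction, as given above. Both glycogen phosphorylases rose in wild types, pygmb by 1.68 and pygl by 0.58, and pygmb by 1.69 in mutants. The mean of pygl over all arrays lay below the background median. Its 3 probe sets changed by 0.58, 0.31 and 0.21 in wild types, and their calls differed.

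The glycerol phosphate dehydrogenases moved in opposite directions in wild types. The gene gpd1b rose (1.1 ± 0.16, adjusted p = 8.46e-05), while gpd1c and gpd1l fell. For gpd1l the wild type arrays read 6.06, 6.18, 5.25 and 5.94 at 48 hpf, against 7.47, 6.45, 6.48 and 6.43 at 24 hpf (-0.85 ± 0.24, adjusted p = 0.0115), and the change was -0.39 (adjusted p = 0.0869) without the 3 arrays least like their groups. For gpd1c they read 8.84, 8.72, 9.03 and 9.35 at 48 hpf, against 9.61, 9.55, 9.37 and 9.36 at 24 hpf (-0.49 ± 0.15, adjusted p = 0.0233). That call ended without replicates 1 or 2 of either wild type group, at adjusted p-values from 0.0556 to 0.0789. It also ended with cyclic loess scaling (-0.34, adjusted p = 0.104). In mutants 0 of the 3 genes were called between the times by limma, and gpd1b alone had an unadjusted p under 0.05 (0.40, adjusted p = 0.084).

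The remaining falls were in genes that share only their spelling with the enzymes. The phosphatase gene pgam5 read 7.86, 8.07, 7.25 and 7.34 at 48 hpf, against 8.23, 8.38, 8.25 and 8.17 at 24 hpf in mutants (-0.63 ± 0.15, adjusted p = 0.00696). Its other probe set changed by -0.08, and the mean of the probe sets was not called (-0.35, adjusted p = 0.0809). The kinase gene pkmyt1 had changes of -0.28 in mutants and -0.26 in wild types at levels of 3.23 to 3.52, below the background median. Its calls ended without any of several single arrays, namely mutant replicates 1 and 2 at 24 hpf and 3 and 4 at 48 hpf, and wild type replicates 1, 2 and 4 at either time. Probe sets of a member also differed for pgk1, whose dimmer probe set read between 3.66 and 3.92 in the 4 group means and changed by 0.14 in mutants and 0.15 in wild types. In mutants they differed in call for idh3b (0.34 and 0.14) and pdha1a (0.44 and 0.31). In wild types they differed for pygo2 (-0.36, -0.58 and 0.08) and, as given above, pfklb.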

How the data were processed

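Total RNA of pooled embryos was measured on Affymetrix zebrafish genome arrays, 1 array per pool. The authors deposited 1 normalized intensity per probe set and array, on a linear scale. The submitters' processing notes name GCOS, RMA and affy. For versions, background correction and filtering, nothing is given in the sources used here. A log2 scale had been assumed when the tests were laid out. The values proved linear, so log2 was taken without a pseudocount. The 115 manufacturer controls were left out and 15502 probe sets tested, with no filter on dim ones. Of these, 10795 had 1 gene symbol in the platform annotation, 135 several and 4572 none, and only those with 1 were named. Symbols were checked against RefSeq assembly GRCz12tu, in which 10711 were found and 1 changed, none of them a member's. A gene took its value from its probe set with the highest mean, and 13 members had more than 1 probe set.

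A model with a mean per group was fitted to all 16 arrays with limma 3.58.1 in R 4.3.3 (12 residual degrees of freedom, prior worth 4.97 more). Mutants were set against wild types at 24 hpf and at 48 hpf, the 48 hpf difference against the 24 hpf difference, and 48 hpf against 24 hpf separately in mutants and wild types. Tests were two-sided, with Benjamini-Hochberg adjustment over all probe sets tested. Every adjusted p of a gene is from this fit unless left-out arrays or another setting are named beside it. The fit was tested on simulated data with independent noise in each probe set. Deviations shared across an array were not simulated, so the test does not show how the fit fares with them. The labels name each pool a biological replicate and give no batch, and the number of arrays limits the precision. Values by array are given for members called between genotypes or in the interaction, and for the 6 largest rises and falls called over time in each genotype; a falling direction with fewer calls was given whole. A few further genes were named after their values were seen. Members, gene lists and markers were chosen with earlier results of these data known. The alternatives were 2 other scalings, a filter on dim probe sets, log2 of the intensity plus 16, fits to 8 arrays, a replicate block, another eBayes prior, array weights, the mean of a gene's probe sets, and each array left out. Leaving out 3 arrays together was added after the data were seen.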

Additional observations from a re-analysis of the deposited data

Results flagged for a closer look

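In 16 of 256 sets of 4 arrays, 1 set per member and group, a single array lay far from the other 3 by Dixon's test, where chance gives about 5%. In wild type replicate 1 at 24 hpf, idh1 read 8.14 (the others 7.58 to 7.66), fbp1b 11.22, gpd1l 7.47 (the others 6.43 to 6.48) and eno1a 7.88. In wild type replicate 3 at 48 hpf, cs read 9.53 (the others 10.19 to 10.29), sucla2 9.61, ldhbb 3.73, ldhd 5.01 and tktb 10.90 (the others 11.28 to 11.31). These are 9 of the 16, in 2 of the 3 arrays least like their groups, and the third, mutant replicate 4 at 48 hpf, stood apart in pgam1a at 9.26. Mutant replicate 1 was low in ogdha at 24 hpf (6.10) and 48 hpf (6.05), and high in suclg1 at 48 hpf (10.61). The other values were 7.77 for pygmb in mutant replicate 4 at 24 hpf, 10.63 for gpia in wild type replicate 4 at 48 hpf and 3.33 for ldhbb in wild type replicate 4 at 24 hpf.

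The genotype difference at 48 hpf minus that at 24 hpf was called for pfkfb4b, at -1.20 in log2 units. It was also called for pfkma, at -1.06, where both 24 hpf groups lay below the background median, so that a difference at that time may have gone unmeasured.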

How the results depend on the processing

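Among 52 results for single genes, each under up to 26 alternatives, 1208 of 1348 values kept their direction and their side of the threshold, 128 lost a call, 12 gained one and 0 reversed. Of the 49 results called, 33 kept the call under every alternative that could be run for them, among them mdh1ab and pgam1b at both times, idh1, pfkma, gpib, gpd1b, pgd and tktb at 48 hpf, and the interaction of pfkma (adjusted p from 0.00102 to 0.0484). The 3 members called at 24 hpf became 5 with a replicate block, 6 with array weights and 6 without the 3 arrays least like their groups, and the 1 member called in the interaction became 2 with array weights. The block added fbp1a and pfkpa at 24 hpf (adjusted p = 0.0223 and 0.0381) and fbp1a and ldha at 48 hpf (0.0128 and 0.0284). Array weights added fbp1a, pfkpa and pklr at 24 hpf (0.0353, 0.00368 and 0.0184). They also added pck2 and dldh at 48 hpf (0.0425 and 0.0275) and pgd in the interaction (0.0462). Same-numbered mutant and wild type arrays at 24 hpf deviated together in 3 of 4 pairs (correlations of 0.43, -0.31, 0.30 and 0.39 for replicates 1 to 4) and at 48 hpf by -0.16 to 0.05. Mutants at 48 hpf gave 0.36, 0.04, 0.17 and 0.40 with mutants at 24 hpf, and 0.39, 0.02, 0.18 and 0.26 with wild types at 24 hpf. Wild types at 48 hpf gave -0.24 to 0.16 with the 24 hpf groups. The numbers were not taken to pair the samples, but structure shared by the other groups was not tested. With the block the counts were 13 at 48 hpf, 1 in the interaction, 41 in mutants over time and 42 in wild types. Leaving out 1 array at a time gave 2 to 4 members at 24 hpf, 9 to 12 at 48 hpf, 35 to 40 over time in mutants and 36 to 42 in wild types. Cyclic loess lowered the share of higher calls at 48 hpf to 43.7% of all genes called, against 54.2%, and raised it over time in wild types to 53.4%, against 39.9%. Among members these shares were 55.6% against 63.6%, and 92.7% against 87.8%. The 764 genes called in all at 24 hpf were 1933 with array weights and 439 without mutant replicate 4, and the 159 in the interaction 368 with array weights. Values near the background median of 4.66, such as pfkma at 24 hpf, were not taken to bound a difference.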
